A study of Mus musculus with 12 samples.

Results

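The 9 genes described here encode the mouse AMPA receptor subunits (Gria1, Gria2, Gria3 and Gria4) and the kainate receptor subunits (Grik1, Grik2, Grik3, Grik4 and Grik5). They were taken by name, as the 2 complete families, and not by any measured value. The mark H3K9me2, found on the histones of repressed chromatin, was measured with ChIP-seq, in which chromatin carrying the mark is precipitated with an antibody and its DNA is sequenced. The regions that a peak caller had found were assigned to genes, and 5 of the 9 genes had at least 1 region. These genes held 45 of 33787 regions in the table of FAD against WT mice, and 56 of 43680 regions in the table of FAD-BIX against FAD mice.

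The 3 groups were FAD mice treated with BIX01294 (FAD-BIX), FAD mice and wild-type mice (WT), with 2 mice in each. All were C57BL/6 mice aged 5 to 6 months, and the tissue was punched from slices of the prefrontal cortex. FAD mice carry mutations of familial Alzheimer's disease. The labels name neither the mutations nor the promoter behind them, and the sex of the mice and the dose and route of BIX01294 are not given in the sources used here. FAD-BIX mice carry the same FAD background as the FAD mice, and no group of treated wild-type mice was analysed here. From every mouse came 1 ChIP library and 1 library of input, which is chromatin that was not precipitated.

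AMPA receptors are glutamate-gated cation channels that carry most fast excitatory transmission in the cortex. They are tetramers of the subunits GluA1 to GluA4, and their number at the synapse sets much of its strength. Kainate receptors are built from GluK1, GluK2 and GluK3, which can form channels on their own, and from GluK4 and GluK5, which need one of those partners. They act on both sides of the synapse and tune transmitter release and excitability. H3K9me2 is written largely by the methyltransferases EHMT1 and EHMT2, and BIX01294 inhibits both enzymes. The comparisons ask whether the mark over these genes differed in FAD mice, and whether it differed after the inhibitor.

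Regions were present at Gria1 and Gria4 among the AMPA receptor genes, and at Grik1, Grik2 and Grik3 among the kainate receptor genes. Gria2, whose subunit keeps the channel impermeable to calcium after RNA editing, had no region in either table. Gria3, Grik4 and Grik5 had none either. A gene without a called region may still carry the mark, because no counts outside called regions were analysed. The X-linked Gria3 lies where few regions were called at all, 166 on the X chromosome in the FAD versus WT table and 273 in the FAD-BIX versus FAD table.

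Grik2, which encodes the GluK2 subunit, held more regions than any other of the 9 genes, with 22 in the FAD versus WT table and 24 in the FAD-BIX versus FAD table. Gria1, which encodes the GluA1 subunit that is inserted into synapses during long-term potentiation, had 9 and 13 regions in these tables. Grik1, which encodes GluK1, had 9 regions in each. Gria4, which encodes GluA4, had 5 and 9. Grik3, which encodes GluK3, had a single region, present in the FAD-BIX versus FAD table.

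Long genes had more regions, so counts were also read per length of gene. Grik2 is the longest of the 9 at 696 kb (GRCm38, chromosome 10, 49093680 to 49790161, minus strand). It held 31.6 regions per Mb in the FAD versus WT table and 34.5 per Mb in the FAD-BIX versus FAD table. Over the 168 RefSeq genes of 500 to 1000 kb the medians were 9.51 and 12.5 per Mb, and the upper quartiles were 19.8 and 27.3 per Mb. Grik2 was thus above the upper quartile of genes of its length in both tables.

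Grik1 spans 395 kb (chromosome 16, 87895901 to 88290863, minus strand) and held 17.7 regions per Mb in the FAD versus WT table and 20.3 in the FAD-BIX versus FAD table. Gria1 spans 319 kb (chromosome 11, 57011571 to 57330244, plus strand), with 12.6 and 22.0 regions per Mb. Gria4 spans 378 kb (chromosome 9, 4417893 to 4796234, minus strand), with 5.29 and 13.2 regions per Mb. For the 330 genes of 300 to 500 kb the medians were 6.08 and 8.76 per Mb, with upper quartiles of 15.5 and 21.2. Among genes of that length 72.7% and 78.8% had a region, and Grik4 at 427 kb was among those without one in both tables. Gria2 at 123 kb and Grik5 at 65.8 kb fall in length classes where most genes had none.

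None of the regions had its centre in an exon or at a promoter. Of the 45 regions in the FAD versus WT table, 35 lay in introns of the genes and the other 10 lay upstream of the gene start. Of the 56 regions in the other table, 45 lay in introns and 11 upstream. The centre closest to a start was 17.6 kb upstream of Grik1. The closest was 32.2 kb inside Grik2, 34.2 kb upstream of Gria4, 61.0 kb inside Grik3 and 81.1 kb inside Gria1. The median width was 329 bp in the FAD versus WT table, against 324.5 bp in the other.

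**Figure D1:**
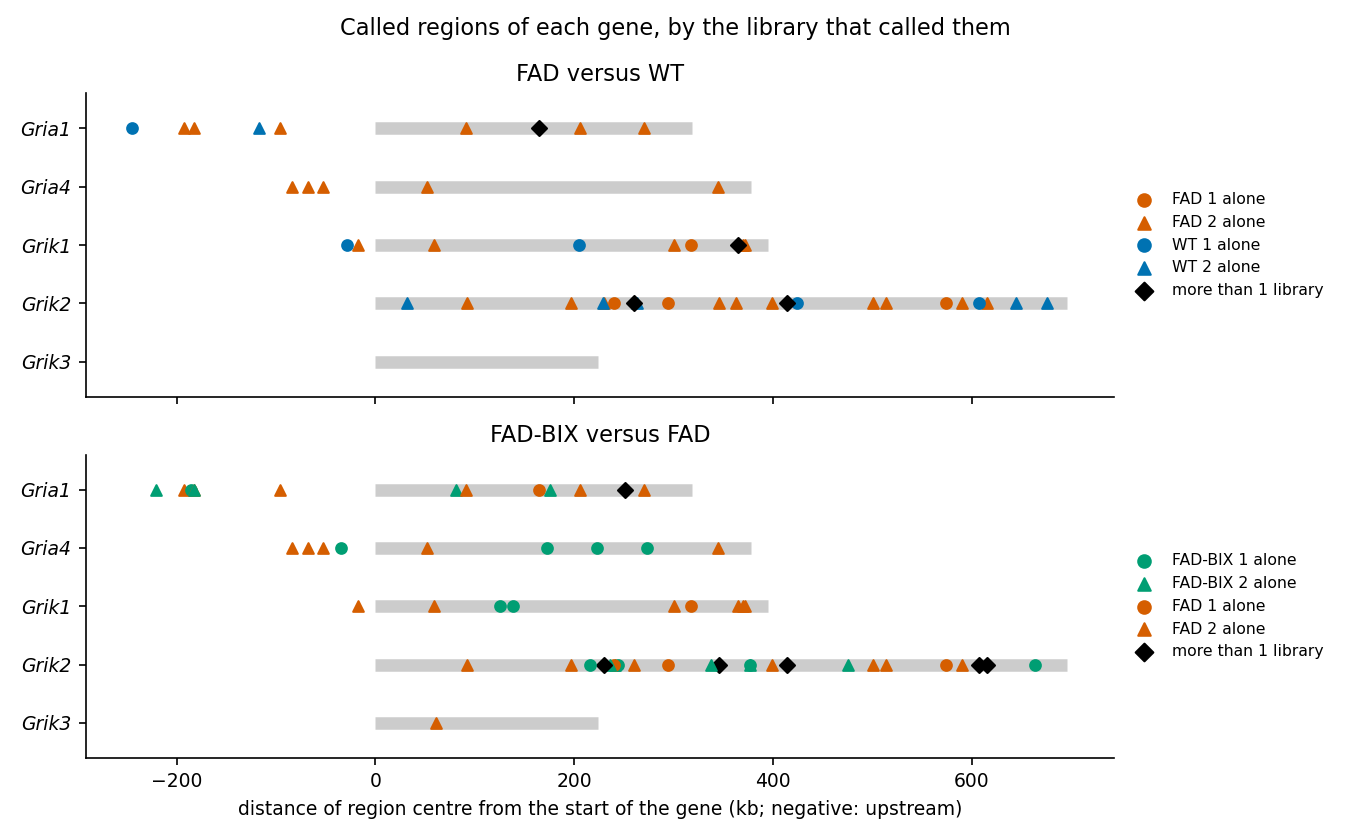
Position of each called region (x axis, distance of its centre from the gene's own start in kb, negative upstream) on 5 receptor genes (rows); grey bars are the genes to scale, colour and shape give the library that alone called a region, and black diamonds are regions called in more than 1 library. Orange triangles are the most frequent symbol, with 26 regions called in FAD 2 alone in the upper panel and 25 in the lower, and the closest region to any start lies 17.6 kb upstream of Grik1.

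Calls were made in each library separately, and most regions of the receptor genes rested on 1 library. For FAD against WT mice 41 of 45 regions were called in 1 library alone, which is 91.1% against 94.9% of all regions. For FAD-BIX against FAD mice it was 50 of 56, or 89.3% against 93.4% of all regions. The FAD 2 library called 29 of the receptor gene regions, and FAD 1 called 6, WT 1 called 8 and WT 2 called 6. FAD-BIX 1 called 16 and FAD-BIX 2 called 12. The FAD 2 library also had the most calls over the whole genome, 21849 in the FAD versus WT table against 3904 in FAD 1, 5867 in WT 1 and 4133 in WT 2.

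Total ChIP reads were 20.45 and 22.0 M in FAD-BIX mice, 24.94 and 20.8 M in mice labelled FAD and 24.49 and 26.58 M in WT mice, and inputs held 13.92 to 23.76 M. The library labelled FAD 1 stood apart from FAD 2, and its label is in doubt. At the regions near Thy1, whose promoter drives many transgenes, input levels were 85.9 and 43.2 RPM per kb (reads per M library reads) in FAD-BIX mice. FAD 2 had 77.9 RPM per kb there, and the library labelled FAD 1 had 0.846. At the 1 region near Thy1 in the FAD versus WT table, inputs had 2.01 (FAD 1) and 77.1 (FAD 2) RPM per kb. The WT inputs had 0.270 and 2.22 RPM per kb at that region. Over 7 heart genes with a region in the FAD-BIX versus FAD table, ChIP reads numbered 420 and 434 in FAD-BIX mice, against 2082 (FAD 1) and 638 (FAD 2) in mice labelled FAD. These 7 came from a list of 13, chosen with earlier results of these data known. The heart genes did not all run alike. Myh6 had 561 (FAD 1) and 46 (FAD 2) reads and Actc1 had 470 and 46, but Ryr2 went the other way with 180 and 302. The labels do not name the promoter, so these values do not settle which genotype the library has. Values given for mice labelled FAD hold this library as the first of the pair, so any direction read from them rests on a label in doubt. Folds of the receptor genes are therefore also given without it. As H3K9me2 marks repressed genes, the markers of cortical cell types gave no check of the tissue, and regions were present at 2 of 6 neuronal and 0 of 4 microglial markers. A punch of cortex holds many cell types, so fewer cells with the mark and less of the mark per cell cannot be told apart.

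No receptor gene passed the test of FAD mice against WT mice. At Gria1, the regions together had 146 and 192 ChIP reads in the FAD 1 and FAD 2 libraries, against 181 and 155 in the WT libraries. Per kb of region this was 1.85 and 2.92 RPM in mice labelled FAD, against 2.34 and 1.84 RPM in WT mice, and the groups overlapped. At Gria4 the reads were 76 and 123 in mice labelled FAD, against 60 and 70 in WT mice. Per kb this was 1.61 and 3.13 RPM in mice labelled FAD, against 1.30 and 1.39 RPM in WT mice. The FAD libraries thus lay above both WT libraries on the scale of library totals. On that scale 85.7% of all genes tested had a positive log2 fold. All 5 Gria4 regions had been called in FAD 2 alone, so the counts compared also chose them.

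Among the kainate receptor genes, Grik1 had 98 and 141 reads in mice labelled FAD, against 113 and 99 in WT mice. This was 1.25 and 2.16 RPM per kb in mice labelled FAD, against 1.47 and 1.19 in WT mice, and the groups overlapped. Grik2 had 335 and 438 reads in mice labelled FAD, against 306 and 362 in WT mice. Its level was 1.59 and 2.49 RPM per kb in mice labelled FAD, against 1.48 and 1.61 in WT mice, again with overlap. In all 4 genes the FAD 2 library was the higher of the FAD libraries.

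Tested with edgeR's quasi-likelihood test with TMM scaling, which sets the typical gene to no change, the log2 fold of FAD over WT mice was -0.38 ± 0.26 (SE) at Gria1 and 0.21 ± 0.28 at Gria4. It was -0.23 ± 0.26 at Grik1 and -0.16 ± 0.24 at Grik2. The Benjamini-Hochberg adjusted p of edgeR's test was 0.932 at Gria1, 0.940 at Gria4, 0.937 at Grik1 and 0.944 at Grik2. So 0 of the 4 receptor genes with regions passed, and over all 3757 genes tested the share was 0%. At an unadjusted p under 0.05 also 0 of the 4 passed, against 1.33% of all genes that were higher and 3.27% that were lower in mice labelled FAD. DESeq2 called 0 of the 4 as well, and 1 gene overall.

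The direction depended on the scaling. With library totals in place of TMM the median log2 fold of all genes moved to 0.61, and the 4 receptor genes had 0.19 (Gria1), 0.81 (Gria4), 0.36 (Grik1) and 0.40 (Grik2). Relative to that median, Gria4 was the only one of the 4 above it. Without the library labelled FAD 1, the log2 folds with TMM were -0.56 at Gria1, 0.17 at Gria4, -0.34 at Grik1 and -0.35 at Grik2. Without FAD 2 they were -0.24, 0.20, -0.15 and -0.02 for the same genes. Each of these fits leaves a lone FAD library, so only the log2 folds are given.

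**Figure D2:**
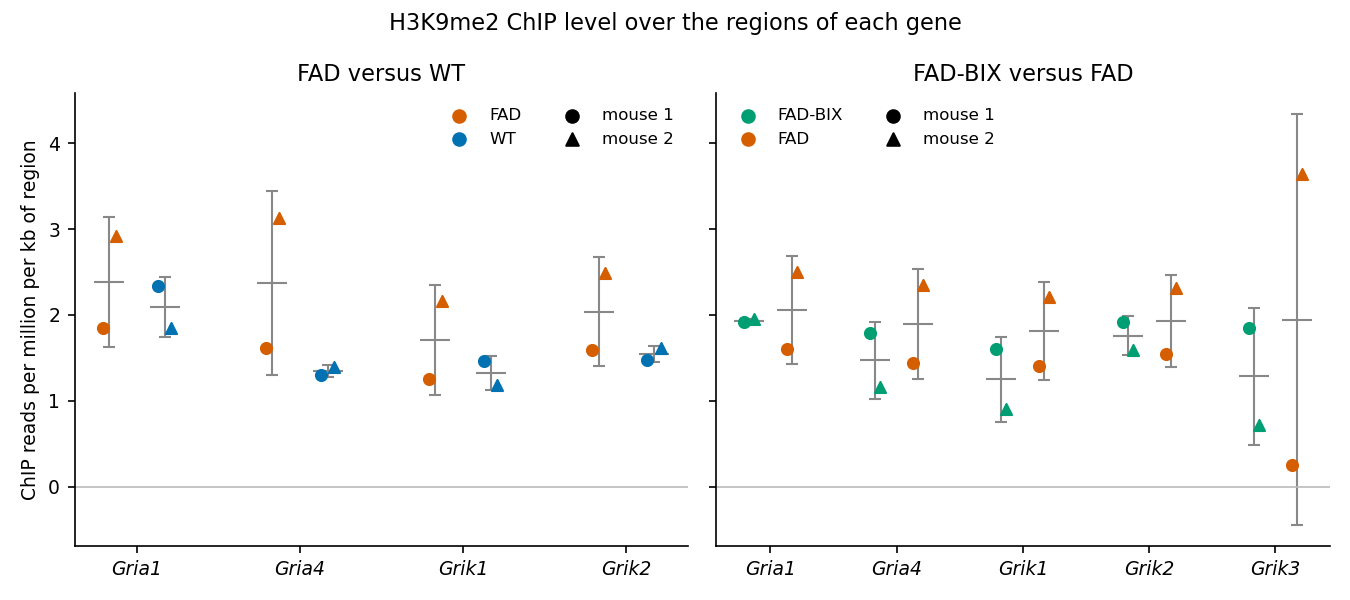
ChIP level in RPM per kb over the regions of each receptor gene (y axis) in each mouse (circles mouse 1, triangles mouse 2), with the group mean and SD in grey, n = 2. In the left panel FAD 2 is the highest library at all 4 genes (2.92, 3.13, 2.16 and 2.49), and in the right panel FAD 2 is again above both FAD-BIX libraries at all 5 genes while FAD 1 lies below at least 1 of them.

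The inputs, which measure the background of the same regions, had fewer reads. At Gria1 the input reads were 21 and 40 in mice labelled FAD, against 62 and 43 in WT mice. At Grik2 they were 85 and 78 in mice labelled FAD, against 90 and 85 in WT mice from deeper libraries, and the log2 fold was 0.67 ± 0.29 by edgeR's quasi-likelihood test (unadjusted p = 0.0349, Benjamini-Hochberg adjusted p = 0.958). So Grik2 was 1 of 4 receptor genes with an input fold at an unadjusted p under 0.05, against 2.85% of 1300 genes that were higher and 2.15% that were lower, and 0% passed the adjusted test. The input log2 folds of the other genes were 0.03 ± 0.37 at Gria1, -0.08 ± 0.46 at Gria4 and 0.15 ± 0.38 at Grik1.

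Within each mouse, the ChIP level was above the input of the same mouse at all 4 genes. The regions were called in these same libraries, so a higher ChIP level follows in part from that choice. Over the 45 regions together the log2 ratio of ChIP to input in FAD 2 was 2.15, and 0.46 where FAD 2 had made no call. At Gria1 the log2 ratio was 1.94 and 1.77 in mice labelled FAD, against 1.49 and 1.21 in WT mice. The FAD mice lay above both WT mice there, and FAD 2 had called 6 of the 9 Gria1 regions. At Gria4 the ratio was 1.15 and 2.79 in mice labelled FAD, against 0.60 and 1.21 in WT mice, with overlap. At Grik1 it was 0.79 and 2.60 in mice labelled FAD, against 1.70 and 0.67 in WT mice. At Grik2 it was 1.17 and 2.01 in mice labelled FAD, against 1.71 and 1.46 in WT mice. At Grik2 the FAD mice lay on both sides of the WT mice. Limma called 0 of the 4 genes on these ratios, and 0 of all 3757 genes tested. The log2 fold of the ratio, FAD over WT mice, was 0.51 at Gria1, 1.06 at Gria4, 0.51 at Grik1 and 0.0047 at Grik2. Over all genes its median was 0.86, and 80.0% of genes were positive.

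**Figure D3:**
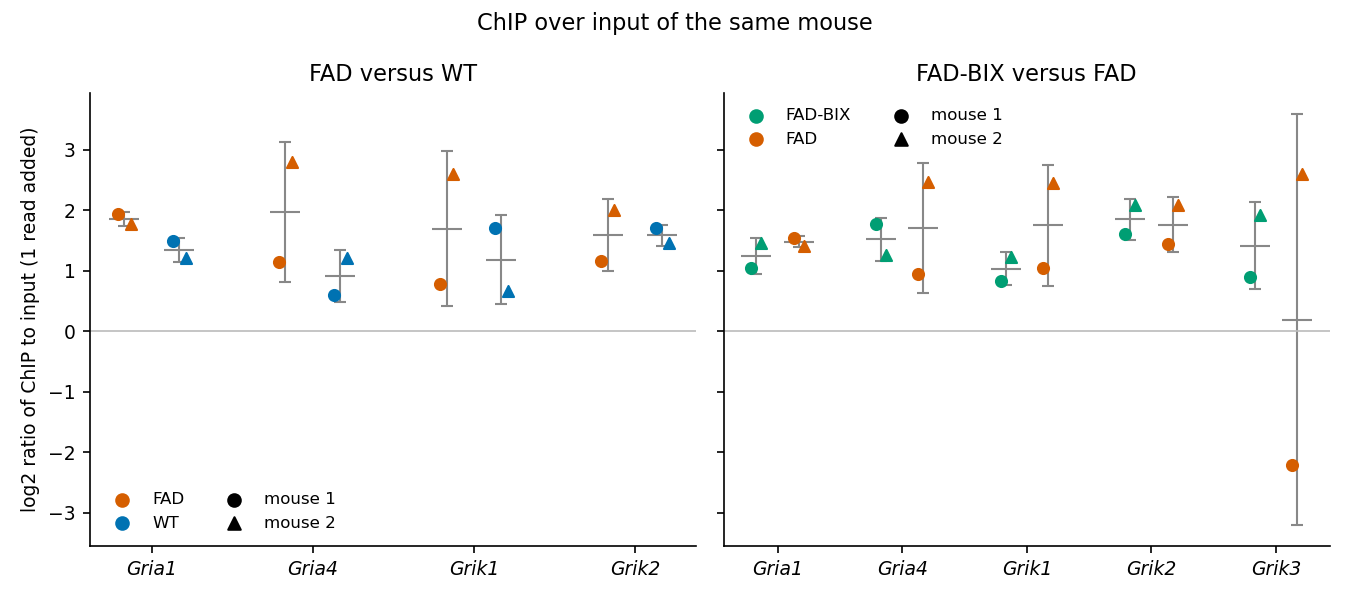
log2 ratio of ChIP to input of the same mouse (y axis, 1 read added to each) over the regions of each receptor gene, with group mean and SD in grey, n = 2. The ratio is above 0 in every mouse at Gria1, Gria4, Grik1 and Grik2, and the 1 value below 0 is Grik3 in the FAD 1 library at -2.21. The regions were chosen by calls in these same libraries, which favours ratios above 0.

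Single regions spread more widely than the genes. After the filter on low counts 37 of the 45 regions were tested, with 19 positive and 18 negative log2 folds and a median of 0.09. With library totals 31 of the 37 were positive. In edgeR's test 0 of the 37 regions passed after adjustment, as with 0% of all 27778 regions tested, and DESeq2 called 0 regions as well. At an unadjusted p under 0.05 there were 0 higher and 1 lower receptor gene region, against 0.918% and 4.97% of all regions.

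The lower one lay in intron 6 of Grik2 (GRCm38, chr10:49526424-49526738). It had 3 and 5 reads in mice labelled FAD, against 13 and 24 reads in WT mice, and the groups did not overlap. Its log2 fold was -2.59 ± 0.71 by edgeR's quasi-likelihood test (unadjusted p = 0.00467, Benjamini-Hochberg adjusted p = 0.832). It had been called in WT 2 alone. A region is in the table only where at least 1 library was called, so the counts compared also chose the regions.

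In Gria1 the region with the smallest p toward lower values lay upstream of the gene (chr11:56894279-56894612), with 6 and 10 reads in mice labelled FAD, against 9 and 25 in WT mice. Its log2 fold was -1.48 ± 0.68 by edgeR's test (Benjamini-Hochberg adjusted p = 0.851). In Grik1 the region with the smallest p toward higher values was in intron 7 (chr16:87973107-87973488), with 24 and 5 reads in mice labelled FAD, against 0 and 12 in WT mice. There the FAD libraries lay apart and the groups overlapped. In Gria4 the corresponding region was upstream of the gene (chr9:4848783-4849253), with 15 and 34 reads in mice labelled FAD, against 9 and 11 in WT mice. The log2 fold was 0.81 ± 0.53 by edgeR's test (Benjamini-Hochberg adjusted p = 0.909). These regions of Gria1, Grik1 and Gria4 had been called in WT 2, FAD 1 and FAD 2 alone, in that order. The counts compared thus also chose them.

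One region of Gria1 carried much of the gene's signal and was chosen for description after its values were seen. It is 410 bp wide in intron 2 (chr11:57175945-57176355) and held 42.1% of the gene's ChIP reads in 13.0% of the bases covered. It had 81 and 42 ChIP reads in mice labelled FAD, against 108 and 53 in WT mice. The inputs of the same mice had 5 and 30 reads in mice labelled FAD, against 15 and 21 in WT mice. In each group the mouse with more ChIP reads had fewer input reads. The log2 fold of the region was -0.70 ± 0.62. Without it the log2 fold of Gria1 was -0.16 (adjusted p = 0.968 by edgeR).

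**Figure D4:**
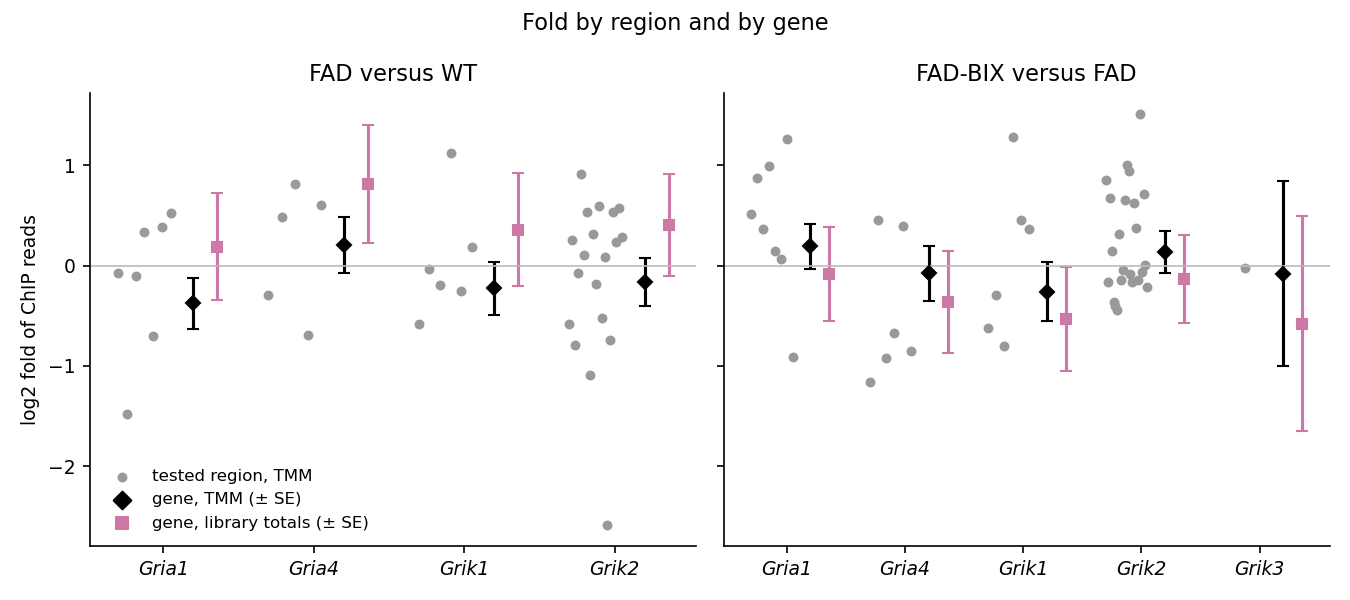
log2 fold of ChIP reads (y axis) for FAD over WT mice (left) and FAD-BIX over FAD mice (right): grey points are the tested regions of each gene, black diamonds the gene with TMM scaling and pink squares the gene with library totals, both ± SE from edgeR. On the left the squares lie above the diamonds at all 4 genes, and on the right they lie below at all 5; the lowest grey point is the Grik2 region at -2.59.

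Without any scaling beyond library totals, 17 of the 45 regions (37.8%) were higher in both FAD libraries than in both WT libraries, and 6 (13.3%) were lower in both. Over all regions the shares were 29.6% and 7.09%. Of the 45 regions, 26 were called in FAD 2 alone. These had 1.39 and 3.08 RPM per kb in FAD 1 and FAD 2, against 1.14 and 1.35 in the WT libraries. The 4 regions called in FAD 1 alone, all in kainate receptor genes, had 2.81 and 1.82 RPM per kb in mice labelled FAD, against 1.05 and 1.18 in WT mice.

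The regions called in a WT library alone were highest in that WT library. The 5 regions called in WT 1 alone had 1.42 and 1.24 RPM per kb in mice labelled FAD, against 3.33 and 1.35 in WT mice. There the groups overlapped. The 6 regions called in WT 2 alone had 0.769 and 0.843 RPM per kb in mice labelled FAD, against 1.03 and 2.72 in WT mice. In each set the library that had made the call was the highest, and the mouse of the same group was lower than it. These levels describe how the regions were chosen and were not tested.

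**Figure D5:**
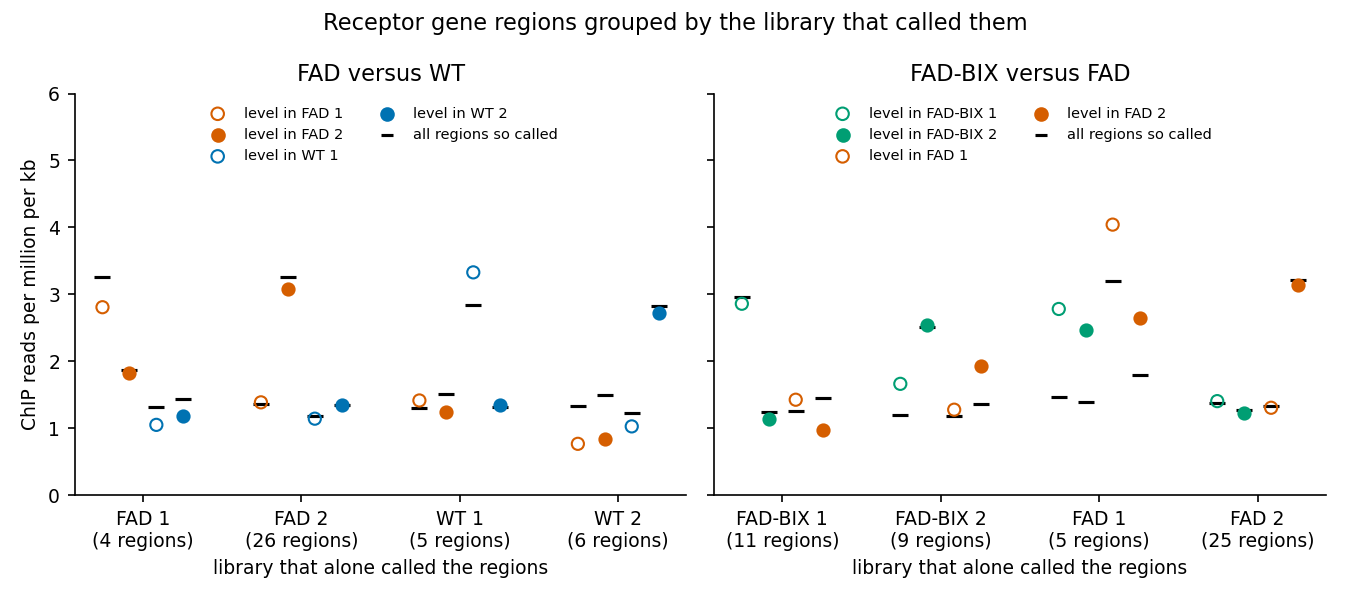
ChIP level in RPM per kb (y axis) over the receptor gene regions that 1 library alone had called (x axis, with the number of regions), shown in each of the 4 ChIP libraries of a table; black dashes give the same value over all regions called in that way. In every column the highest circle belongs to the library that made the calls, for example 3.08 in FAD 2 for its 26 regions in the left panel.

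No receptor gene passed the test of FAD-BIX mice against FAD mice either. At Gria1 the reads were 182 and 199 in FAD-BIX mice, against 186 and 241 in mice labelled FAD. The level was 1.92 and 1.95 RPM per kb in FAD-BIX mice, between the 1.61 and 2.50 of FAD mice. At Gria4 the reads were 108 and 75 in FAD-BIX mice, against 106 and 144 in mice labelled FAD, with 1.79 and 1.16 RPM per kb in FAD-BIX mice, against 1.44 and 2.35 in mice labelled FAD. Both genes had overlapping groups.

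For the kainate receptor genes, Grik1 had 96 and 58 reads in FAD-BIX mice, against 103 and 135 in mice labelled FAD. Its level was 1.60 and 0.899 RPM per kb in FAD-BIX mice, against 1.41 and 2.21 in mice labelled FAD. Grik2 had 420 and 375 reads in FAD-BIX mice, against 413 and 514 in mice labelled FAD, which was 1.92 and 1.60 RPM per kb in FAD-BIX mice, against 1.55 and 2.31 in mice labelled FAD. The groups overlapped at both genes. The single region of Grik3 in intron 1 (chr4:125551098-125551415) had 12 and 5 reads in FAD-BIX mice, against 2 and 24 in mice labelled FAD, so the FAD libraries were the lowest and the highest of the 4.

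The log2 fold of FAD-BIX over FAD mice was 0.19 ± 0.23 (SE) at Gria1, -0.08 ± 0.28 at Gria4, -0.26 ± 0.30 at Grik1, 0.13 ± 0.21 at Grik2 and -0.08 ± 0.92 at Grik3 by edgeR's quasi-likelihood test with TMM scaling. The Benjamini-Hochberg adjusted p values of that test were 0.959 (Gria1), 0.976 (Gria4), 0.959 (Grik1), 0.967 (Grik2) and 0.992 (Grik3). So 0 of the 5 genes passed, as with 0% of the 4052 genes tested, and DESeq2 called 0 genes as well. At an unadjusted p under 0.05 also 0 of 5 passed, against 2.91% of all genes that were higher and 1.83% that were lower in FAD-BIX mice.

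With library totals the median log2 fold of all genes moved to -0.30, and the receptor genes had -0.08 (Gria1), -0.36 (Gria4), -0.53 (Grik1), -0.13 (Grik2) and -0.58 (Grik3). Gria1 and Grik2 were above that median and the other 3 below it. Without the library labelled FAD 1 the log2 folds with TMM were 0.30 at Gria1, -0.01 at Gria4, -0.16 at Grik1, 0.27 at Grik2 and -0.84 at Grik3. Without FAD 2 they were 0.08, -0.16, -0.36, -0.01 and 2.08 for the same genes. The value of Grik3 thus rested on which FAD library was kept. With a lone FAD library in each of these fits, only the folds are given.

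In the inputs the reads at Gria1 were 63 and 45 in FAD-BIX mice, against 36 and 65 in mice labelled FAD, and at Grik2 they were 98 and 55 in FAD-BIX mice, against 87 and 87 in mice labelled FAD. No receptor gene passed in the input test at an unadjusted p under 0.05, against 1.18% of 1266 genes that were higher and 2.05% that were lower. The log2 ratio of ChIP to input at Grik2 was 1.61 and 2.09 in FAD-BIX mice, against 1.44 and 2.09 in mice labelled FAD. At Gria1 it was 1.04 and 1.46 in FAD-BIX mice, against 1.54 and 1.41 in mice labelled FAD.

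Of the 56 regions 44 were tested, with 24 positive and 20 negative log2 folds and a median of 0.11. With library totals 16 of the 44 were positive. In edgeR's test 0 of the 44 regions passed after adjustment, as with 0% of 31055 regions, and DESeq2 called 0 regions as well. At an unadjusted p under 0.05 there were 2 higher and 0 lower, against 3.93% and 1.18% of all regions. Groups that did not overlap in RPM were found at 8 regions higher in FAD-BIX mice (14.3%) and 8 lower (14.3%), against 12.6% and 19.5% of all regions.

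Of the 2 higher regions, the one in intron 11 of Gria1 (chr11:57263035-57263539) had 25 and 25 reads in FAD-BIX mice, against 12 and 16 in mice labelled FAD. The log2 fold there was 1.26 ± 0.52 by edgeR's quasi-likelihood test (unadjusted p = 0.0263, Benjamini-Hochberg adjusted p = 0.897). It was called in both FAD-BIX libraries and in no FAD library, so the counts compared also chose it. The other lay in intron 7 of Grik2 (chr10:49443524-49444339), with 30 and 33 reads in FAD-BIX mice, against 15 and 28 in mice labelled FAD. Its log2 fold was 1.00 ± 0.47 by edgeR's test (unadjusted p = 0.0437, Benjamini-Hochberg adjusted p = 0.897), and it was called in FAD-BIX 1, FAD-BIX 2 and FAD 2. Neither group overlapped with the other at these regions.

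At Gria4 the region with the smallest p toward lower values lay in intron 14 (chr9:4451075-4451447). It had 7 and 8 reads in FAD-BIX mice, against 23 and 21 in mice labelled FAD, with no overlap. This region had been called in FAD 2 alone, so the counts compared also chose it. The log2 fold there was -1.16 ± 0.65 by edgeR's test (Benjamini-Hochberg adjusted p = 0.897). The strong region in intron 2 of Gria1, here chr11:57175962-57176337, had 50 and 49 reads in FAD-BIX mice, against 76 and 42 in mice labelled FAD, with a log2 fold of 0.07 ± 0.47. It held 26.9% of the reads of Gria1 in this table.

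In the FAD-BIX versus FAD table, too, the library that made a call was the highest in its set. The 11 regions called in FAD-BIX 1 alone had 2.86 and 1.14 RPM per kb in FAD-BIX mice, against 1.43 and 0.978 in mice labelled FAD. The 9 called in FAD-BIX 2 alone had 1.66 and 2.54 in FAD-BIX mice, against 1.28 and 1.93 in mice labelled FAD. The 25 called in FAD 2 alone had 1.41 and 1.23 in FAD-BIX mice, against 1.31 and 3.15 in mice labelled FAD. The 5 called in FAD 1 alone, among them the strong Gria1 region, had 2.78 and 2.47 in FAD-BIX mice, against 4.04 and 2.65 in mice labelled FAD.

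No table held FAD-BIX and WT mice together, so they were set against each other at the regions whose coordinates were identical in both tables. There were 22214 such regions, all called in a FAD library, and 27 belonged to the receptor genes. Over the 27 regions the level was 1.50 and 1.28 RPM per kb in FAD-BIX mice, 1.61 and 2.89 in mice labelled FAD, and 1.16 and 1.30 in WT mice. The FAD libraries were used to choose these regions, so their values are not compared. FAD-BIX over WT mice gave log2 folds of 0.20 ± 0.28 at Gria1, -0.35 ± 0.26 at Gria4, -0.16 ± 0.29 at Grik1 and 0.24 ± 0.22 at Grik2, each with a Benjamini-Hochberg adjusted p of 0.998 by edgeR's quasi-likelihood test. So 0 of 4 genes passed, as with 0% of 3074 genes, and at an unadjusted p under 0.05 it was 0 of 4, against 1.33% higher and 1.37% lower.

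In the authors' deposited table, 1 receptor gene region in each comparison had a p-value under 0.05, and it was the same region, in intron 2 of Grik2 (chr10:49697390-49697746). It had 7 and 15 reads in FAD-BIX mice, 12 and 23 in mice labelled FAD and 9 and 12 in WT mice. Its inputs had 2 and 3 reads in FAD-BIX mice, 0 and 1 in mice labelled FAD and 6 and 4 in WT mice. The authors' deposited table gave a log2 fold of 2.39 for FAD over WT mice (their p-value 0.0467) and of -1.86 for FAD-BIX over FAD mice (their p-value 0.0311). The 2 comparisons share the FAD libraries, and the ratio rests on 0 and 1 input reads there. In both comparisons the region had been called in FAD 2 alone. By edgeR's quasi-likelihood test on its ChIP reads, the log2 fold was 0.28 ± 0.58 for FAD over WT mice (Benjamini-Hochberg adjusted p = 0.9996). For FAD-BIX over FAD mice that test gave -0.21 ± 0.65 (adjusted p = 0.980). Of all regions in the authors' deposited table, 2.67% and 2.09% had a p-value under 0.05 in these comparisons.

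AMPA receptors work with auxiliary subunits such as the TARPs, and kainate receptors with the Neto proteins, and scaffold proteins hold both at the synapse. Of 36 genes of these kinds, 10 were tested in the FAD versus WT comparison and 8 in the FAD-BIX versus FAD comparison, and 0 passed in either. At an unadjusted p under 0.05 there were 0 higher and 1 lower of the 10, against 1.33% and 3.27% of all genes. For FAD-BIX over FAD mice there were 0 of the 8 in either direction, against 2.91% higher and 1.83% lower. Medians of the log2 fold were 0.10 and 0.07 for the AMPA auxiliary subunits in these comparisons, against 0.00 over all genes in the FAD versus WT comparison. For the kainate auxiliary and binding proteins they were 0.19 over 2 genes and -0.25 in a single gene. For the trafficking and anchoring genes they were -0.69 over 3 genes and 0.11 over 2 genes. Cacng3, a TARP, had 42 and 57 reads in mice labelled FAD, against 19 and 28 in WT mice, and the log2 fold was 0.69 ± 0.39 by edgeR's test (Benjamini-Hochberg adjusted p = 0.929). It had 19 and 28 reads in FAD-BIX mice, against 42 and 57 in mice labelled FAD, and the log2 fold was -0.71 ± 0.43 (adjusted p = 0.874 by edgeR). These values share the FAD libraries.

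Adarb1 encodes ADAR2, the enzyme that edits the Gria2 transcript. Its regions had 4 and 21 reads in mice labelled FAD, against 26 and 25 in WT mice, with a log2 fold of -1.52 ± 0.62 by edgeR's test (unadjusted p = 0.0332, Benjamini-Hochberg adjusted p = 0.929). The low value was that of the library labelled FAD 1. In the FAD-BIX versus FAD table it had 6 and 11 reads in FAD-BIX mice, against 0 and 18 in mice labelled FAD. Neto1, a kainate receptor auxiliary subunit, had 35 and 22 reads in mice labelled FAD, against 12 and 20 in WT mice, with a log2 fold of 0.55 ± 0.59 (adjusted p = 0.937 by edgeR).

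The genes whose reads ran most like the summed receptor genes over the 8 ChIP columns of both tables were Astn2, Dlgap1 and Cadm2, of 233 genes with at least 10 regions in each table. Their root mean square distances, in centred log2 normalised counts, were 0.056, 0.062 and 0.067, and the median of the 233 genes was 0.168. Astn2 had 454 and 668 reads in mice labelled FAD, against 452 and 503 in WT mice. The FAD libraries stand in both tables, so the 8 columns are not independent.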

How the data were processed

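Per the labels' protocols, cross-linked cortex (1% formaldehyde, 12 min) was sonicated and sequenced as 50 bp single-end or 150 bp paired-end reads. The submitters' processing notes list BWA 0.7.12, MACS2 2.1.0, Trimmomatic, FastQC and the build mm9. Per the file headers, the 2 deposited tables hold the count of reads per library in each region, RPM, fold enrichment over input (a ratio), the authors' log2 fold change and the authors' p-value and q-value. Deposited RPM values were (count + 1) multiplied by 1 factor per library (largest relative deviation 4.75e-06), and the inverse of the factor served as library total. The tables held 34413 and 44428 rows, and 1 row per region was kept.

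Positions are given as GRCm38, since 99.7% of 3517 and of 4010 genes matched by symbol overlapped their RefSeq GRCm38 position, although the notes name mm9. The counting base of the starts (0 or 1) is unknown. A region belongs to the named gene it overlaps or, failing that, to the named gene with the closest start, which gave 37.6% and 37.9% of regions a gene.

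Counts were summed per gene and tested over all genes, and per region over all regions, in R 4.3.3 with the quasi-likelihood test of edgeR 4.0.16 (TMM, filterByExpr at its defaults, unpaired), and p-values were adjusted by Benjamini-Hochberg with 0.05 as the threshold. ChIP over input was tested in limma 3.58.1. Alternatives were DESeq2 1.42.0, other scalings, no filter, a replicate block, each library left out, regions that overlap a gene, regions called in at least 2 libraries, 50% reciprocal overlap, and, chosen after seeing the data, Gria1 without its strongest region. The steps were tested on simulated data, for FAD versus WT and FAD-BIX versus FAD in turn. Genes changed 2-fold were recovered in 5.97% and 8.96% of cases, and genes changed 4-fold in 83.6% of cases in each. For regions the shares were 0% and 0% at 2-fold, and 16.4% and 4.48% at 4-fold. Changes of 2-fold would thus mostly be missed, so a result of 0 passed does not show that they were absent. The members and gene lists were chosen with earlier results of these data known. By rule, named regions are each gene's lowest p per direction (a selection is given), and list genes those of lowest p. SE is the log2 fold over the square root of F. Nothing in the labels pairs mice across groups. The p-values rest on 2 mice per group, with the spread of each gene or region estimated partly from the others.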

Additional observations from a re-analysis of the deposited data

How the results depend on the processing

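The number of receptor genes or regions called stayed at 0 under all 75 alternative counts. Of the log2 folds under alternatives, 141 kept their sign and 25 turned, all of them uncalled, and apart from scaling the cause was not tested. With library totals the folds that turned were 0.19 (Gria1), 0.36 (Grik1) and 0.40 (Grik2) for FAD over WT mice, and -0.084 (Gria1) and -0.13 (Grik2) for FAD-BIX over FAD mice; the median of all genes moved to 0.61 and -0.30. As ChIP over input with 1 read added they were 0.51 (Gria1), 0.51 (Grik1) and 0.0047 (Grik2) for FAD over WT mice, and -0.23 (Gria1) and 1.22 (Grik3) for FAD-BIX over FAD mice. With 5 reads added they were 0.43 (Gria1) and 0.42 (Grik1) for FAD over WT mice, and -0.21 (Gria1) and 0.38 (Grik3) for FAD-BIX over FAD mice. In regions called in at least 2 libraries, Grik1 had 0.0046 and Grik2 0.034 for FAD over WT mice. At 50% reciprocal overlap Gria1 had -0.24 for FAD-BIX over WT mice. With regions overlapping a gene alone, the folds for FAD over WT mice kept their sign. They were -0.25 at Gria1, 0.06 at Gria4, -0.16 at Grik1 and -0.16 at Grik2. Leaving out 1 ChIP library at a time (the lone sample of a group is then assumed to vary like the other group) gave ranges of -0.43 to 0.19 for Gria4, -0.74 to 0.091 for Grik1, -0.016 to 0.27 for Grik2 and -0.89 to 2.08 for Grik3 for FAD-BIX over FAD mice, and -0.54 to 0.15 for Grik1 for FAD-BIX over WT mice. Grik3 turned without FAD 2 or FAD-BIX 2, Grik2 without FAD-BIX 1 or FAD 2, and the others without FAD-BIX 2. With the replicate block 0 members were called, and Grik3 had 0.21. Over all genes the calls for FAD over WT mice and for FAD-BIX over FAD mice were 0 and 0 as reported, 4 and 7 with the replicate block, 2 and 3 with library totals, 0 and 10 with no filter on low counts, and 0 to 31 and 0 to 22 with 1 library left out. The correlation of same-numbered deviations over genes was 0.07 and -0.05 in these comparisons. With 2 mice per group this cannot show whether same-numbered mice were paired. Median reads per receptor gene region were 13, so counting error is large in single regions. Every scaling is relative, so a uniform change of the mark would not show.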
